A study of Mus musculus with 14 samples.

Results

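The genes described here are 10 of the 39017 genes in the count table: Nectin1, Nectin2, Nectin3 and Afdn of the nectin-afadin adhesion system, Shc1, Shc2 and Shc3 of the Shc adapter family, and Reln, Lrp8 and Dab1 of reelin signaling. They were chosen from the readout, because Nectin1 and Shc3 differed in the susceptible libraries, so every comparison with susceptible mice is given as a description without a test. The comparison of TRAP with input and that of resilient with non-defeated mice were not the reason for the choice and were tested. Earlier results of these data were known when the genes were chosen. Both tested comparisons also share the non-defeated libraries with the comparison of susceptible with non-defeated mice. All 10 genes passed the filter on low counts, which kept 21298 genes.

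Nectins are immunoglobulin-like adhesion molecules that bind across the gap between neighboring cells, and afadin ties their cytoplasmic tails to actin at puncta adherentia beside synapses. Shc proteins are adapters that bind phosphorylated receptor tyrosine kinases, among them the neurotrophin receptors, and link them to Grb2, Sos and Ras, with Shc2 and Shc3 the forms known mainly from neurons. Reelin is a secreted glycoprotein made in the adult hippocampus mostly by interneurons. It binds the receptors Lrp8 and Vldlr and leads to phosphorylation of the intracellular adaptor Dab1.

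RNA was sequenced from the hippocampus of adult male mice of C57BL/6 background that carried both a PV-Cre driver and a Cre-dependent EGFP-L10a allele. In translating ribosome affinity purification (TRAP), ribosomes bearing the tagged protein are pulled down, so the RNA comes mainly from cells in which Cre was active, here those with a history of parvalbumin (PV) expression. Mice that had lived through chronic social defeat stress (CSDS), repeated attacks by an aggressor mouse, were sorted by a social interaction test into 4 resilient and 3 susceptible animals, beside 4 non-defeated animals. The remaining 3 libraries, called input, were by the series design total RNA of non-defeated hippocampus taken before TRAP. Their molecule label names translating RNA instead. Both hippocampi of 1 mouse made 1 TRAP sample, all groups carried the same alleles, and no library without the tag was analysed here.

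Library totals ranged from 64110214 to 94726962 counts. Values are given as normalized CPM, the counts of a gene relative to the library total as scaled by the TMM method of edgeR. The 6 PV neuron markers summed to 517 to 616 CPM in input and 3088 to 4265 in TRAP, and Pvalb itself was 20.0 to 31.9 CPM in input and 1208 to 1600 in TRAP. Markers of excitatory neurons remained at 615 to 1174 CPM in TRAP against 2018 to 2385 in input. How much of the pulled-down RNA was RNA of other cells was not tested. Thalamic neuron markers stood apart in 3 TRAP libraries, with sums of 218 and 340 CPM in non-defeated libraries 11 and 9 and 588 in resilient library 7, against 41.5 to 148 in the other 8. Input libraries 12, 13 and 14 had thalamic sums of 164, 129 and 374 CPM. In bulk RNA, fewer cells of a type and less RNA per cell cannot be told apart.

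Nectin1, whose product pairs with nectin-3 across contacts between axons and dendrites, lies on chromosome 9 at 43743984 to 43807461 of GRCm38, on the plus strand. Its 3 input libraries held 1.84, 1.71 and 1.63 CPM, and its 4 non-defeated TRAP libraries 3.33, 3.29, 3.43 and 3.41. The non-defeated values were the most even of any member in that group, with a coefficient of variation of 1.93%, and lay above every input value. In the fit over all genes, Nectin1 was 0.96 ± 0.18 (SE) higher in TRAP on the log2 scale, 1.95-fold, with an edgeR adjusted p of 0.000359.

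The resilient libraries held 2.505, 3.11, 3.66 and 3.39 CPM of Nectin1, a range that included the non-defeated values. The susceptible libraries held 4.87, 7.01 and 4.64 CPM, all above both other TRAP groups. The mean was 5.51 ± 1.30 CPM (SD, n = 3) in susceptible mice, against 3.36 ± 0.065 (SD, n = 4) for the non-defeated and 3.17 ± 0.495 (SD, n = 4) for the resilient group. As a description, the log2 difference was 0.71 ± 0.17 (SE) from non-defeated and 0.80 ± 0.17 from resilient mice, or 1.64-fold and 1.74-fold. Susceptible library 2 was the highest, and without it the difference from non-defeated mice was 0.50. The gene rested on 195 to 510 counts in a TRAP library, the fewest of the 10.

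Nectin2, a family member found in many tissues, lies on chromosome 7 at 19716644 to 19750483, on the minus strand. It held 2.17, 2.38 and 2.12 CPM in input and 8.95, 10.3, 11.9 and 9.47 in non-defeated TRAP. Input and TRAP were far apart. Its excess in TRAP was the largest of the 10 genes, at 2.19 ± 0.20 on the log2 scale or 4.57-fold (edgeR adjusted p = 4.41e-07). Resilient libraries held 10.8, 9.77, 6.90 and 9.98 CPM and susceptible libraries 7.05, 8.93 and 11.4, so that all 3 TRAP groups overlapped.

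Nectin3, the partner of nectin-1, lies on chromosome 16 at 46387706 to 46498525, on the minus strand, and went the other way. It held 25.0, 21.7 and 19.5 CPM in input and 6.55, 7.29, 5.10 and 6.45 in non-defeated TRAP. No TRAP library of any group came near the input values. In log2 terms the difference was -1.80 ± 0.20 (edgeR adjusted p = 4.22e-06). Resilient libraries held 4.44, 8.37, 6.97 and 5.92 CPM and susceptible libraries 8.91, 6.91 and 5.74, again overlapping the non-defeated ones.

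Because Nectin2 and Nectin3 had the largest differences from input in opposite directions within the family, the 300 bases around their start sites (250 before and 50 after, RefSeq, GRCm38.p6, minus strand, read 5′ to 3′) are shown. The Nectin2 window is chr7:19749524-19749823 and the Nectin3 window chr16:46496918-46497217. Both windows lie inside the gene spans given above, downstream of the 5′ ends of those spans. Capitals mark the GC box GGGCGG and the cAMP response element TGACGTCA, searched on both strands.
Nectin2: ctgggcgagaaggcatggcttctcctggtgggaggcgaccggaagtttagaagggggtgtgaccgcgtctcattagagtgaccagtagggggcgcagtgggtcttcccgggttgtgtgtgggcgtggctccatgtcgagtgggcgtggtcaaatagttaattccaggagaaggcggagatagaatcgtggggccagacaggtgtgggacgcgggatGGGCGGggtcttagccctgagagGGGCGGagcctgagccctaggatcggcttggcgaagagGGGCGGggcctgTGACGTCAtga
Nectin3: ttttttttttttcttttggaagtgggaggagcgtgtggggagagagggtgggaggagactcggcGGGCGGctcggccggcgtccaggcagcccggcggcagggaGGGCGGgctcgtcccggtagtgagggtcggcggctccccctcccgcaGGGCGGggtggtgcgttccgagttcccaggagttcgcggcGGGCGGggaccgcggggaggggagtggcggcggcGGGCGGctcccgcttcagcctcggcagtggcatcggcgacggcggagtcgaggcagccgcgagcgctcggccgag
The Nectin2 window held 3 GC boxes and 1 cAMP response element, and the Nectin3 window 5 GC boxes and no cAMP response element. The cAMP response element of Nectin2 lay in the 50 bases after the start. GC content was 62.7% in the Nectin2 and 73.7% in the Nectin3 window, beside a median of 52.7% over all 32851 promoter windows. Of all those windows, 35.7% held the GC box and 1.79% the cAMP response element. These matches describe letters only, and nothing was measured at the promoters. The table gave windows for 8 of the 10 genes, with none for Nectin1 and Shc3.

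Afdn encodes afadin, the actin-binding scaffold of nectins, on chromosome 17 at 13760539 to 13906150 on the plus strand. It held 28.6, 29.6 and 29.2 CPM in input and 55.8, 41.6, 43.2 and 50.1 in non-defeated TRAP. The groups did not overlap. It was higher in TRAP by 0.71 ± 0.21 on the log2 scale, 1.64-fold, with an edgeR adjusted p of 0.00959. Without the 3 TRAP libraries high in thalamic markers, and with every input library kept, the difference was 0.53. It was then no longer called (edgeR adjusted p = 0.0891).

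Afdn varied widely within the stress groups, with 29.4, 61.9, 41.9 and 48.0 CPM in resilient libraries 3, 5, 7 and 8 and 66.6, 47.0 and 43.5 in susceptible libraries 10, 2 and 4. All 3 TRAP groups overlapped. The log2 difference of susceptible from non-defeated mice was 0.14 ± 0.20. Without the 3 libraries high in thalamic markers, which leaves 2 non-defeated libraries, it was 0.31 with no overlap. Those 2 libraries held 41.6 and 43.2 CPM, just below the lowest susceptible value of 43.5. Resilient library 3, which was lowest in Afdn among TRAP libraries, was also lowest in the summed markers of excitatory neurons, at 615 CPM, and of oligodendrocytes, at 214 CPM. Libraries 5 and 10, highest in Afdn, had the highest excitatory sums of the TRAP libraries, 1174 and 1090 CPM. They also had the highest oligodendrocyte sums, 895 and 682 CPM, and astrocyte sums, 279 and 339 CPM. Input, with excitatory sums of 2018 to 2385 CPM, held 28.6 to 29.6 CPM of Afdn. The part of these cells in the Afdn values was not tested.

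Among the Shc adapters, Shc1, the broadly expressed form (chromosome 3, 89418443 to 89430027, plus strand), held 9.90, 10.3 and 11.7 CPM in input and 9.56, 8.53, 7.33 and 7.50 in non-defeated TRAP. The groups lay close together without overlapping. Its log2 difference from input was -0.37 ± 0.22 and was not called (edgeR adjusted p = 0.164), although a fit of these 2 groups alone gave -0.36 with an edgeR adjusted p of 0.0352. Resilient libraries held 9.15, 5.82, 9.62 and 8.12 CPM and susceptible libraries 10.7, 6.32 and 5.46. Susceptible library 10 was the highest of all TRAP libraries and library 4 the lowest, so the widest spread was within the susceptible group.

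Shc2, a neuronal form (chromosome 10, 79618051 to 79637918, minus strand), held 36.7, 43.1 and 41.4 CPM in input and 23.9, 24.8, 27.1 and 28.7 in non-defeated TRAP. All input values were above all TRAP values. On the log2 scale TRAP differed from input by -0.63 ± 0.10 (edgeR adjusted p = 0.000152). Resilient libraries held 33.1, 29.7, 33.3 and 26.5 CPM and susceptible libraries 22.5, 24.5 and 26.6. Of the resilient libraries, 3 of 4 were above every non-defeated one, but library 8 was inside the non-defeated range.

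Shc3, the other neuronal form (chromosome 13, 51431041 to 51569419, minus strand), held 16.7, 14.3 and 22.2 CPM in input libraries 12, 13 and 14 and 24.1, 16.8, 17.2 and 23.6 in non-defeated libraries 11, 1, 6 and 9. Input and TRAP overlapped. The log2 difference was 0.20 ± 0.17 (edgeR adjusted p = 0.343). It was -0.07 without the 3 TRAP libraries high in thalamic markers. That fit kept input library 14, whose thalamic sum was 374 CPM, and without that library alone the difference was 0.40.

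Shc3 held 18.8, 19.6, 20.0 and 26.3 CPM in resilient libraries 3, 5, 7 and 8 and 11.9, 13.1 and 13.2 CPM in the susceptible libraries. Every susceptible value was below every other TRAP value. The mean was 12.7 ± 0.745 CPM (SD, n = 3) in susceptible mice, against 20.4 ± 3.97 (SD, n = 4) for the non-defeated and 21.2 ± 3.46 (SD, n = 4) for the resilient group. As a description, the log2 difference was -0.68 ± 0.18 (SE) from non-defeated and -0.74 ± 0.18 from resilient mice. The lowest TRAP values outside the susceptible group, 16.8 and 17.2 CPM, came from the 2 non-defeated libraries low in thalamic markers. Resilient library 7, with a thalamic sum of 588 CPM, held 20.0 CPM of Shc3. Resilient libraries 3, 5 and 8, with thalamic sums of 41.5, 84.1 and 78.5 CPM, held 18.8, 19.6 and 26.3. Without the 3 libraries high in thalamic markers, the log2 difference from non-defeated mice was -0.41, and that from resilient mice was -0.77. The part of thalamic RNA in the Shc3 values was not tested.

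**Figure D1:**
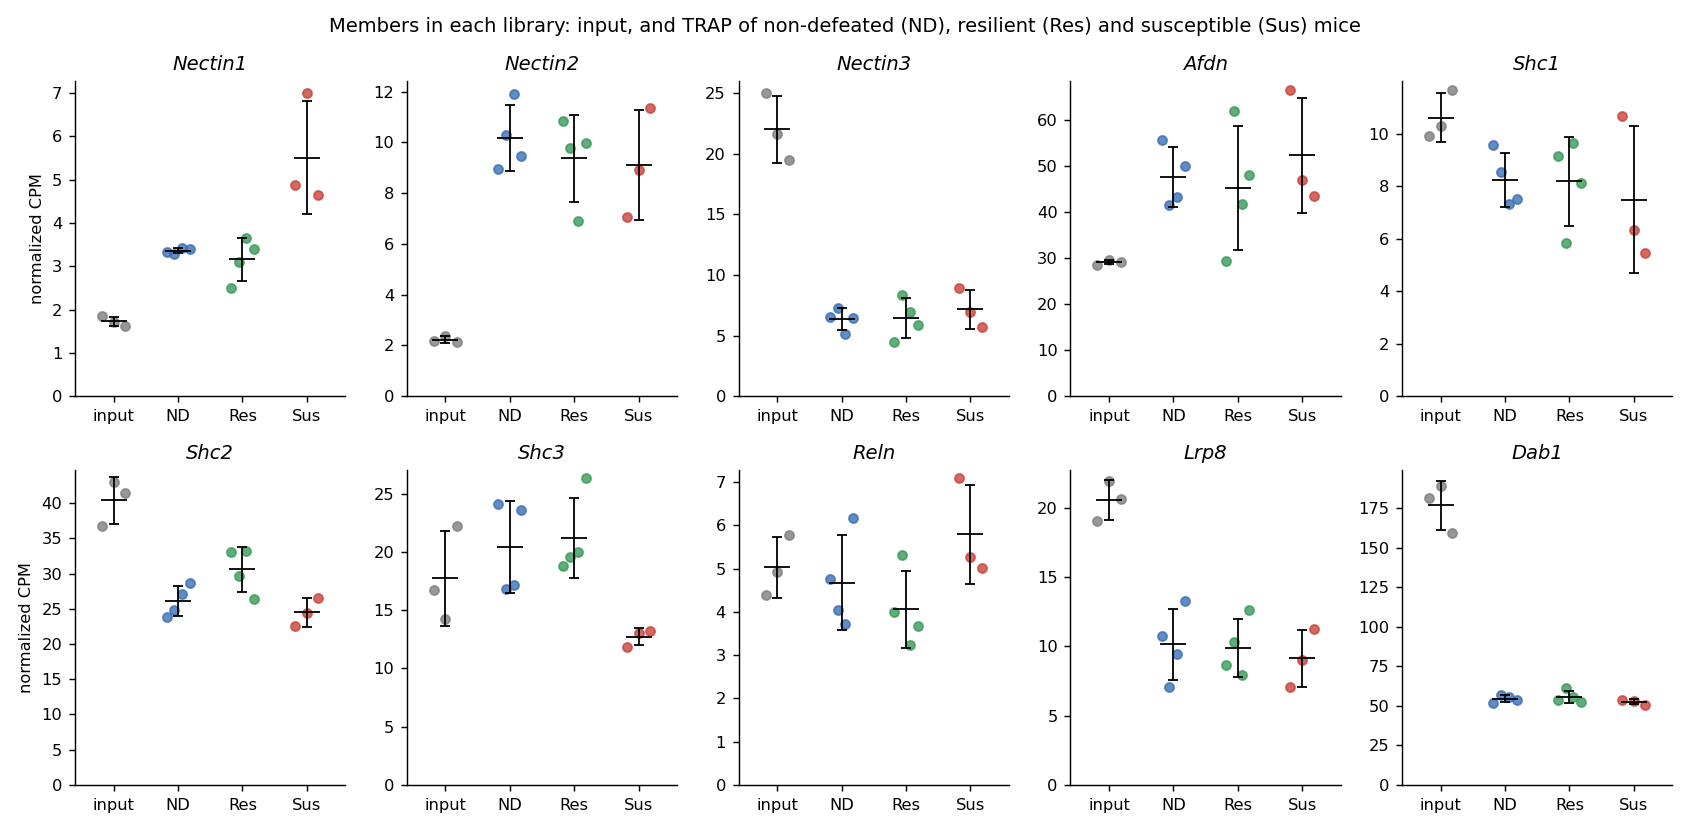
Normalized CPM of each gene (vertical axis, starting at 0) in every library of input and of TRAP from non-defeated (ND), resilient (Res) and susceptible (Sus) mice. Points are libraries, and black bars give the mean and SD. Nectin1 lay at 4.64 to 7.01 CPM in susceptible libraries and at 3.66 or less elsewhere, and Shc3 at 11.9 to 13.2 CPM and at 16.8 or more in the other TRAP libraries.

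Reln encodes the ligand reelin (chromosome 5, 21884454 to 22344702, minus strand). It held 4.39, 4.93 and 5.78 CPM in input and 4.76, 4.04, 3.72 and 6.17 in non-defeated TRAP, and these ranges overlapped. Its log2 difference from input was -0.11 ± 0.21 (edgeR adjusted p = 0.686). Resilient libraries held 3.99, 5.31, 3.24 and 3.68 CPM and susceptible libraries 7.09, 5.26 and 5.01. The susceptible values lay toward the upper end but overlapped both other groups, with a log2 difference of 0.31 ± 0.21 from non-defeated and 0.51 ± 0.21 from resilient mice. Without the 3 libraries high in thalamic markers, which leaves 2 non-defeated libraries, those no longer overlapped the susceptible ones and the differences were 0.59 and 0.41. Markers of Cajal-Retzius cells, another source of reelin, summed to 6.50 to 8.47 CPM in input. In TRAP they summed to 3.39 to 6.33 CPM, apart from 14.4 in resilient library 7. That library held 4.86 CPM of Lhx1 and 3.31 of Lhx5, against at most 1.63 and 0.54 in other TRAP libraries. Its Ebf3 was 0.67 and its Trp73 5.58 CPM, against at most 0.38 and 5.02. The same library had the thalamic sum of 588 CPM and the lowest Reln value in TRAP, 3.24 CPM. The part of these cells in the Reln values was not tested.

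Lrp8, a reelin receptor (chromosome 4, 107802261 to 107876840, plus strand), held 19.1, 21.96 and 20.7 CPM in input and 10.8, 7.07, 9.42 and 13.3 in non-defeated TRAP. Input stood above every TRAP library. The log2 difference was -1.02 ± 0.21 (edgeR adjusted p = 0.000812). Resilient libraries held 8.67, 10.3, 7.95 and 12.6 CPM and susceptible libraries 7.10, 9.03 and 11.3, both inside the non-defeated range. The log2 difference of susceptible from non-defeated mice, -0.15 ± 0.21, changed sign to 0.15 without the 3 libraries high in thalamic markers.

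Dab1, the adaptor phosphorylated downstream of reelin (chromosome 4, 103619359 to 104744844, plus strand), held 181.5, 189.4 and 159.5 CPM in input and 51.8, 57.0, 55.9 and 53.7 in non-defeated TRAP. Every input value was far above every TRAP value. The log2 difference was -1.70 ± 0.08 (edgeR adjusted p = 2.57e-09). Dab1 was also the steadiest gene across the TRAP groups, with 53.7, 61.2, 55.9 and 52.3 CPM in resilient and 53.7, 53.3 and 50.6 in susceptible libraries.

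Set side by side, 7 of the 10 genes differed between TRAP of non-defeated mice and input, where 55.0% of all tested genes did. Nectin1, Nectin2 and Afdn were higher in TRAP (27.4% of all genes were), and Nectin3, Shc2, Lrp8 and Dab1 were lower (27.6% of all genes were). The median log2 difference of the 10 was -0.24, against -0.04 over all genes. Markers of other cells also differed in this comparison. The excitatory, oligodendrocyte, astrocyte, microglial and blood sums were lower in TRAP of non-defeated mice. Sums of other interneurons were higher, at 431 to 636 CPM against 353 to 387 in input. Of their 7 markers, 2 were called higher and 5 lower. Endothelial sums were also higher, at 6.76 to 11.4 CPM against 4.25 to 6.07. Of their 5 markers, 2 were called higher and 0 lower. The part of all these cells in the members' differences was not tested.

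**Figure D2:**
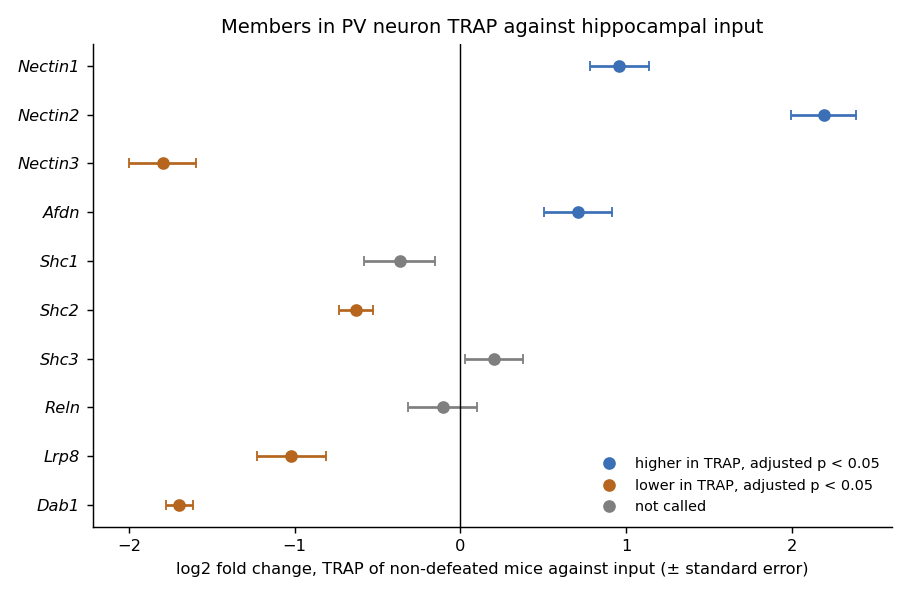
Log2 fold change of each gene in TRAP of non-defeated mice (4 libraries) against input (3 libraries), with the standard error of the fit. Nectin2 stood farthest to the right at 2.19, and Nectin3 and Dab1 farthest to the left at -1.80 and -1.70.

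Per gene length, as CPM divided by the kilobases of merged exon (RPKM), Dab1 had the highest level of the 10 in every group, at 22.4 ± 1.96 (SD, n = 3) in input and 6.90 ± 0.293 (SD, n = 4) in non-defeated TRAP. Reln had the lowest in every group, at 0.212 ± 0.0297 and 0.197 ± 0.0459 RPKM. In non-defeated TRAP, Shc2 at 4.81, Afdn at 4.66 and Shc3 at 4.45 RPKM followed Dab1, and neighbors among these 3 overlapped between libraries. Nectin2 followed at 2.91 RPKM in place 5, then Shc1 at 1.46, Lrp8 at 0.964, Nectin1 at 0.595 and Nectin3 at 0.498 RPKM, with no overlap between neighbors from Shc3 down to Reln. In input Nectin3, the lowest nectin in non-defeated TRAP, was the highest at 1.73 RPKM, above Nectin2 at 0.636 and Nectin1 at 0.306. In susceptible TRAP, Nectin1 at 0.975 ± 0.231 RPKM overlapped Lrp8, and Shc3 at 2.77 ± 0.163 RPKM overlapped Nectin2.

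**Figure D3:**
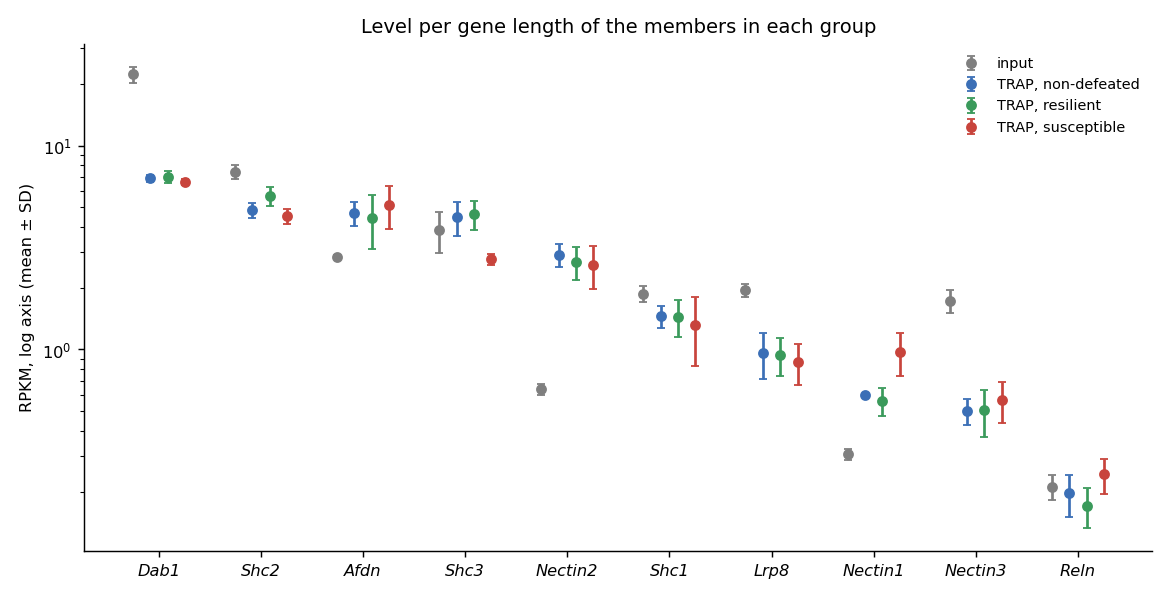
Level per gene length (RPKM, log axis, mean and SD) of the 10 genes in input and the 3 TRAP groups, ordered by the non-defeated mean. Nectin3 was the highest of the 3 nectins in input and the lowest in TRAP, and Nectin2 was above Nectin1 in both.

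Resilient and non-defeated mice were compared to ask how these genes stood in mice that went through defeat without social avoidance. None of the 10 genes was called by edgeR, which called 0% of all genes, and all 10 had an edgeR adjusted p of 1. DESeq2 called none of the 10 and 3 genes in all. At an unadjusted p under 0.05, 4.38% of all genes passed and 1 member did, Shc2, with a log2 difference of 0.23 ± 0.10 and an unadjusted edgeR p of 0.0333. The other log2 differences ran from -0.20 ± 0.20 for Reln to 0.05 ± 0.16 for Shc3. Apart from Shc2 and Reln, each difference was smaller than its standard error. With 4 mice a group this does not show that the levels were equal.

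In the comparisons with susceptible mice, libraries did not overlap for Nectin1 and Shc3 against either other group, and overlapped for the other 8 genes. Libraries did not overlap for 8.62% of all genes between susceptible and non-defeated mice, for 15.1% between susceptible and resilient mice, and for 4.53% in the same direction in both. Since Nectin1 and Shc3 were the reason for the choice, nothing is read from these shares. The comparisons share the susceptible libraries. For the 8 genes that overlapped, log2 differences from non-defeated mice ran from -0.16 ± 0.18 for Nectin2 to 0.31 ± 0.21 for Reln. Shc2 was -0.32 ± 0.11 against resilient mice and -0.09 ± 0.11 against non-defeated mice, with 1 resilient library inside the susceptible range.

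**Figure D4:**
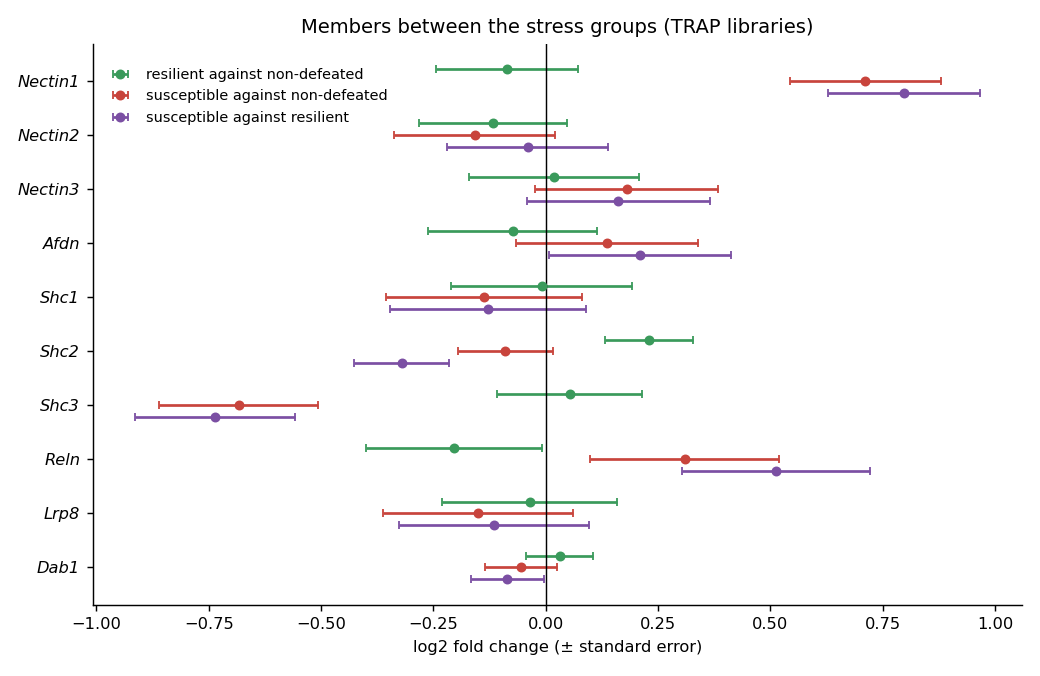
Log2 fold changes with standard errors for resilient against non-defeated, susceptible against non-defeated and susceptible against resilient mice. Both comparisons with susceptible mice, which are descriptions, lay at 0.71 and 0.80 for Nectin1 and at -0.68 and -0.74 for Shc3.

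Marker sums also differed between the TRAP groups. Blood markers, led by hemoglobin genes, summed to 116 to 243 CPM in non-defeated, 129 to 599 in resilient and 890 to 1239 in susceptible libraries, and all 5 were detected in every library. All 5 were separate and higher in susceptible than in non-defeated libraries. In input, which is whole tissue, the blood sums were 780 to 987 CPM. Endothelial markers summed to 6.76 to 11.4 CPM in non-defeated, 10.3 to 34.1 in resilient and 18.9 to 32.0 in susceptible libraries. Their median log2 difference from non-defeated mice was 1.07 in resilient and 0.91 in susceptible mice. Of the 5 endothelial markers, 1 was separate and higher in resilient and 2 in susceptible than in non-defeated libraries. Between susceptible and resilient mice, 3 were higher and 2 lower, with 0 separate. The part of blood and vessel RNA in the values of Nectin1 and Shc3 was not tested.

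Markers of other interneurons summed to 506 to 877 CPM in susceptible, 431 to 636 in non-defeated and 440 to 795 in resilient libraries. Of these 7 markers, Cck alone was separate from both other TRAP groups, with a log2 difference of 0.22 from non-defeated and 0.31 from resilient mice. Sst and Npy had larger log2 differences from non-defeated mice, 0.68 and 0.65, but their libraries overlapped. Against non-defeated mice, 5 of the 7 markers went up and 2 down. Against resilient mice, 6 went up and 1 down. The part of these cells in the values of Nectin1 and Shc3 was not tested.

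**Figure D5:**
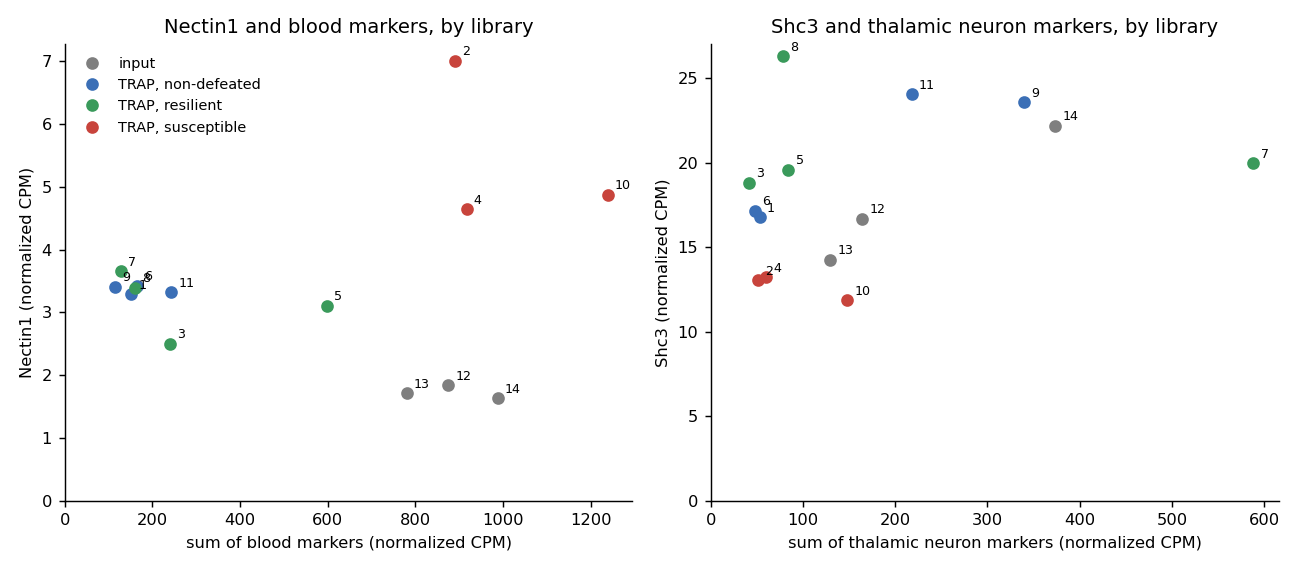
Left, Nectin1 against the sum of 5 blood markers, and right, Shc3 against the sum of 5 thalamic neuron markers, all in normalized CPM on linear axes from 0. Points are libraries labelled with their sample number. Blood sums were 890 to 1239 CPM in susceptible, 780 to 987 in input and 116 to 599 in the other TRAP libraries, and the thalamic sums of susceptible libraries were 51.6 to 148 CPM.

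Over the 11 TRAP libraries, the genes whose log2 CPM followed Nectin1 most closely were Rtn4 (Pearson r = 0.93), which encodes the reticulon Nogo, Enah (r = 0.92), an actin regulator, and Map9 (r = 0.92), a microtubule-associated protein. Those closest to Shc3 were the antisense transcript A330032B11Rik (r = 0.97), Ip6k1 (r = 0.96), an inositol hexakisphosphate kinase, and the antisense transcript Gm10390 (r = 0.96). Ip6k1 averaged 174 ± 5.79 CPM (SD, n = 3) in susceptible mice, against 226 ± 29.7 (SD, n = 4) for the non-defeated and 232 ± 15.8 (SD, n = 4) for the resilient group. These correlations are descriptions, picked as the highest of all genes over libraries that include the susceptible ones.

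The wider pathways were read from 3 lists. Of 19 other nectin and adherens junction genes, 3 were higher and 5 lower in TRAP than in input by edgeR (55.0% of all genes differed), with a median log2 difference of -0.35 against -0.04 over all genes. Nectin4, another nectin, was 1.004 ± 0.14 higher. The nectin-like molecule Cadm2 was at -0.99 ± 0.13 and the scaffold Magi2 at -0.65 ± 0.08.

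Of 26 further reelin pathway genes, 10 were higher and 10 lower (55.0% of all genes differed), with a median of 0.02. Limk1, a kinase that acts on cofilin, was 2.11 ± 0.24 higher and Pafah1b3, a subunit of a complex that binds Lis1, 1.76 ± 0.13 higher. Nck2, an adaptor, was at -1.12 ± 0.09 and the small GTPase Rap1b at -0.88 ± 0.10. The second reelin receptor, Vldlr, was lower like Lrp8, at -0.77 ± 0.11 (edgeR adjusted p = 3.07e-05), and was singled out after its values were seen.

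Of 22 Ras pathway genes downstream or upstream of Shc, 6 were higher and 9 lower (55.0% of all genes differed), with a median of -0.17. The kinases Map2k2 and Araf were 0.86 ± 0.07 and 0.77 ± 0.10 higher, whereas Nras and Braf were at -1.56 ± 0.14 and -1.03 ± 0.10. The edgeR adjusted p of the named genes was 3.19e-05 or less. None of these 67 genes was called by edgeR between resilient and non-defeated mice, where 0% of all genes were.

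In susceptible mice, again as a description, the largest rise and fall from non-defeated mice were those of Cadm3 (log2 difference 0.45 ± 0.19) and Tjp1 (-0.41 ± 0.26) among the junction genes. They were Grin2b (0.47 ± 0.14) and Limk1 (-0.58 ± 0.22) among the reelin genes, and the largest rise among the Ras genes was that of the neurotrophin receptor Ntrk3 (0.38 ± 0.12). Libraries were separate for Grin2b, Limk1 and Ntrk3 and overlapped for Cadm3 and Tjp1. In the junction, reelin and Ras lists, 0, 3 and 1 genes were separate and higher in susceptible than in non-defeated mice, and 1, 4 and 1 were separate and lower, beside 8.62% of all genes in either direction.

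Against resilient mice, the largest rises were those of Cadm3 (0.64 ± 0.19), Socs7 (0.65 ± 0.19), a part of the ubiquitin ligase that acts on Dab1, and Ntrk3 (0.39 ± 0.12). The largest falls were those of Plekha7 (-0.50 ± 0.32), Crkl (-0.35 ± 0.11), an adaptor that binds phosphorylated Dab1, and Rasgrf1 (-0.51 ± 0.21). Libraries were separate for Cadm3, Socs7, Ntrk3 and Crkl. In the 3 lists, 1, 7 and 3 genes were separate and higher, and 2, 4 and 2 separate and lower, beside 15.1% of all genes.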

How the data were processed

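The authors trimmed reads with fastp, aligned them to mm10 with STAR (2.5.3a in the submitters' processing notes, another version in the study's methods) and deposited, for 14 libraries, unnormalized read counts by gene, with HTSeq named in those notes. Libraries were made from full-length cDNA (SMART-Seq) and were not strand-specific. Reads in exon stretches shared with a gene on the other strand, which were 135 bp in Nectin2, 221 bp in Afdn, 63 bp in Shc2 and 246 bp in Reln, cannot be told apart.

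The members and gene lists were chosen with earlier results of these data known. Gene models came from GENCODE vM21 (GRCm38). Of the 39017 identifiers, 37607 had a name there. The fits used edgeR 4.0.16 (R 4.3.3) with TMM normalization, the default filter on low counts and the quasi-likelihood test, with all 14 libraries in 1 model. Tests were 2-sided with Benjamini-Hochberg adjustment over 21298 genes, called at an adjusted p under 0.05. RPKM was computed over merged exons of all isoforms, which understates genes with long, rarely used exons. Groups are called separate when no library of one reaches the range of the other. Depth was 64110214 to 94726962 counts, and the spread between libraries includes counting error.

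The genes named were all members, per pathway list and tested comparison the 2 called genes with the smallest p in each direction, per list the largest rise and fall in susceptible mice, and the 3 genes most correlated with Nectin1 and with Shc3 (log2 CPM, prior count 2). Some genes that met this rule are not reported here. Alternatives were DESeq2 1.42.0, RLE size factors, no filter, the 2 groups compared only, the 11 TRAP libraries only, the sample number as a covariate, leaving out each library, and, chosen after the data were seen, leaving out the 3 TRAP libraries with thalamic marker sums over 200 CPM. The steps were tested on simulated data. Each TRAP sample was 1 mouse, and the input samples carry other numbers than the TRAP samples. P-values measure the spread between these samples.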

Additional observations from a re-analysis of the deposited data

Results flagged for a closer look

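Shc3 in resilient library 8, at 26.3 CPM, lay apart from the other 3 resilient libraries, which held 18.8 to 20.0 CPM. The gap to its nearest neighbor was 0.843 of the group's range, above Dixon's critical value for 4 samples. It was the only 1 of 20 groups of 4 libraries examined, and chance alone gives about 1 in 20.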

How the results depend on the processing

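The count of members called in TRAP against input was 7 in each fit that left out 1 library and 6 to 8 under the other settings, and that in resilient against non-defeated mice was 0 throughout. List genes called in TRAP against input numbered 41 to 45 over the fits without 1 library. The number of members separate between susceptible and non-defeated mice ran from 2 to 3 over the same fits, and against resilient mice likewise. It rose to 5 against non-defeated mice without the 3 libraries high in thalamic markers, a setting that leaves 2 non-defeated libraries: Nectin1, Reln and Afdn were then higher and Shc3 and Dab1 lower. In that setting the Shc3 difference from input was -0.0708, and between resilient and non-defeated mice those of Afdn, Reln, Lrp8 and Dab1 were 0.15, 0.17, 0.37 and -0.0013, each of the opposite sign to the main value. The same difference of Shc1 was 0.0004 without a filter and 0.0243 with the sample number as a covariate, where that of Lrp8 was 0.0084. All of these were uncalled, and the cause was not tested.

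Over the fits without 1 library, log2 differences of susceptible from non-defeated mice ran from 0.50 to 0.82 for Nectin1 and from -0.77 to -0.59 for Shc3. The smallest Nectin1 value came without susceptible library 2. Some uncalled differences changed sign. That of Reln in TRAP against input ran from -0.2708 to 0.0044. Between resilient and non-defeated mice, Nectin1 ran from -0.1638 to 0.0104, Nectin2 from -0.1954 to 0.004, Nectin3 from -0.1347 to 0.1599, Afdn from -0.2616 to 0.0867, Shc1 from -0.0971 to 0.1235, Shc3 from -0.068 to 0.1383, Lrp8 from -0.1751 to 0.1214 and Dab1 from -0.0168 to 0.0606. No paired analysis was possible because the groups share no sample numbers. Precision was limited by the 3 susceptible libraries and, for Nectin1, by its 195 to 510 counts in a TRAP library.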
